A study of Mus musculus with 6 samples.

Results

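The genes described here are the 37 genes of the mouse mitochondrial genome, chosen as every gene that the deposited table places on chrM, out of 54352 genes in all. They comprise 13 genes for messenger RNAs, 2 for ribosomal RNAs and 22 for transfer RNAs. RNA from whole mouse hearts was sequenced in 6 libraries, 2 in each of 3 groups. The T2D dnMCUb hearts came from C57BL/6 mice made diabetic and then given an adeno-associated virus (AAV) that encodes murine MCUb with a FLAG tag at its C terminus and 2 point mutations, a form described as dominant negative. MCUb is a subunit of the calcium uniporter of the inner mitochondrial membrane. The T2D empty vector hearts came from mice made diabetic in the same way and given an AAV without an insert. Diabetes was induced in mice aged 12 weeks, by feeding them 60% of energy as fat and 1 dose of streptozotocin, a toxin of pancreatic beta cells, at 75 mg/kg. Animals were counted as having type 2 diabetes (T2D) after 20 weeks of the diet, the virus was injected by the jugular vein between 16 and 18 weeks from the streptozotocin dose, and hearts were studied 4 weeks after the virus, 5 to 6 months after induction. The control group, fed regular chow and injected with no vector, differed from T2D empty vector mice in diet, streptozotocin and vector together, and these cannot be told apart. The text on the series as a whole names MCUb and the labels of the samples name dnMCUb; groups follow the sample labels.

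Values are rlog values, read abundances on a log2 scale that the authors scaled between libraries and drew towards each gene's mean, most of all at low counts. The values are not counts, so depth is unknown. Defining cardiomyocyte genes were among the genes tested in all 6 libraries, 8 of 8, with a summed level of 20.48 and 20.82 on the log2 scale in T2D dnMCUb hearts, 20.77 and 20.79 in T2D empty vector hearts and 20.94 and 20.85 in control hearts. Mcub itself, the gene that the vector carries in mutated form, had an rlog of 5.62 and 5.47 in T2D dnMCUb hearts, 5.48 and 5.46 in T2D empty vector hearts and 5.42 and 5.47 in control hearts. These values overlap, the difference between T2D dnMCUb and T2D empty vector was 0.08 (SE 0.05; limma, adjusted p = 0.888), and every direction below that involves T2D dnMCUb rests on its label.

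Mitochondrial DNA is a compact circle present in many copies per cell. Both strands are transcribed into long precursors, from which transfer RNAs that lie between most of the larger genes are cut out, which frees the messenger and ribosomal RNAs. The proteins it encodes are core subunits of respiratory complexes I, III and IV and of ATP synthase (complex V), and the heart, which depends on oxidative metabolism, is rich in these RNAs. Copies of mitochondrial DNA have also been inserted into nuclear chromosomes during evolution, and recent ones can closely match the genes they came from.

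Levels split the messenger RNA genes into 2 sets. Of the 13, 7 had a mean rlog between 12.00 and 20.59 and 6 had values between -2.09 and 1.74 in every library. Rlog is not per length, and these genes are 204 to 1824 bases long. The low set consisted of mt-Co2, mt-Atp8, mt-Atp6, mt-Co3, mt-Nd3 and mt-Nd4l, which follow each other on the genome from 7013 to 10173. The whole of that stretch lies in a segment, chrM:6381-11042 (4662 bases, GRCm38), that corresponds, by the positions of annotated pseudogenes, to a segment on the minus strand of chromosome 1, chr1:24611535-24616197 (4663 bases). The chromosome 1 segment is annotated with 7 pseudogenes, and the letters of these were compared with those of the chrM genes in the GENCODE M21 transcripts, base by base.

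The first 60 bases of 3 such pairs are shown because they hold the differences at the edge of the segment, the 1 difference further in, and a pair with none. Capitals mark bases that differ within a pair, and each sequence is given 5′ to 3′ on the strand of its gene. The mt-Co1 pair begins where the copied segment begins, at base 1054 of mt-Co1, on chrM:6381-6440 (plus strand) and chr1:24616138-24616197 (minus strand). The mt-Nd3 pair lies on chrM:9459-9518 (plus strand) and chr1:24613060-24613119 (minus strand), and the mt-Co2 pair on chrM:7013-7072 (plus strand) and chr1:24615506-24615565 (minus strand).
mt-Co1: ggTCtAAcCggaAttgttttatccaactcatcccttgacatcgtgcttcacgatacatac
Gm29216: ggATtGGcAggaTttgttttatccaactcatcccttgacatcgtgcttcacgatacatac
mt-Nd3: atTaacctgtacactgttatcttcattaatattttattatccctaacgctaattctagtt
Gm28438: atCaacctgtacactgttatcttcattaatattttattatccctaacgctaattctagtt
mt-Co2: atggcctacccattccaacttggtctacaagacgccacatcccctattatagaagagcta
Gm28661: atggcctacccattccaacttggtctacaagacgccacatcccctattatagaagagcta

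Over their whole annotated lengths, 5 of the 7 pairs had no difference. Gm28661 matched mt-Co2 at 681 of 681 bases, Gm10925 matched mt-Atp6 at 678 of 678 and Gm28437 matched mt-Co3 at 783 of 783. Gm10222 matched mt-Nd4l at 294 of 294 bases and Gm28439 matched the first 876 bases of mt-Nd4. Gm28438 matched mt-Nd3 at 344 of 345 bases, and T3C, counted from 1 at the first base of mt-Nd3 with the chrM base first, was the difference. Gm29216 matched the end of mt-Co1 at 486 of 492 bases, with T1056A, C1057T, A1059G, A1060G, C1062A and A1066T, counted from the first base of mt-Co1, all close to the edge of the segment.

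For messenger RNA genes, position relative to this segment went with level. All 11 genes that lie wholly inside it, 6 for messenger RNAs and 5 for transfer RNAs, had rlog values between -2.09 and 1.74, and the 4 transfer RNA genes mt-Ts1, mt-Td, mt-Tk and mt-Tg were listed at 0 in all libraries. The 2 genes that lie partly inside, mt-Co1 with 1053 bases outside the segment and mt-Nd4 with 502, had values between 16.28 and 20.71. The 5 messenger RNA genes wholly outside had values between 11.83 and 18.50. For transfer RNA genes the ranges overlapped, since 3 of the 17 outside the segment, mt-Tf at -1.37, mt-Tc at -0.33 and mt-Tv at 0.73, lay within the range of the genes inside it. No messenger RNA gene wholly inside came near the level of one that was partly or wholly outside. How the authors' counting treated reads that match more than 1 place, and the read length, are not given here in the sources, and the part of this match in the low values was not tested.

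**Figure D1:**
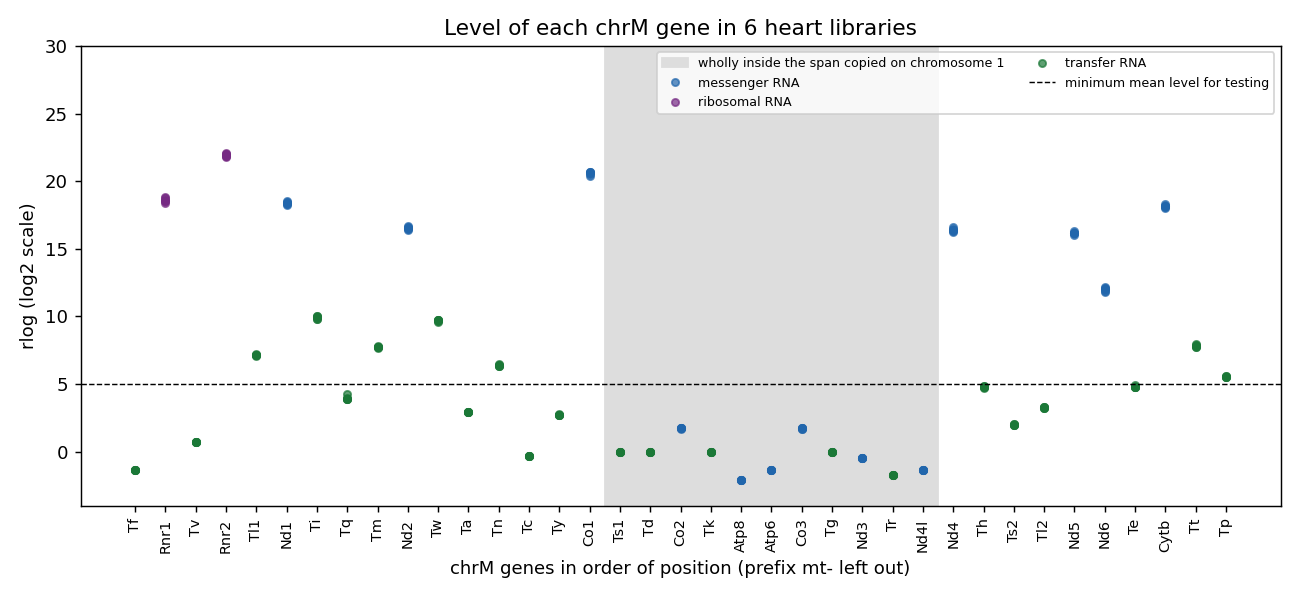
Rlog of each of the 37 chrM genes (y axis, log2 scale) in their order on the genome (x axis), with 1 point per library, 6 per gene, coloured by kind of RNA. The shaded stretch holds the 11 genes wholly inside the segment copied on chromosome 1, all between -2.09 and 1.74, and the dashed line is the mean rlog of 5 from which genes were tested.

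The share of a gene that cannot be told from annotated nuclear transcripts was measured with windows of 50 bases. All windows of mt-Co2 (100%) occurred also in an annotated nuclear transcript, as did 99.9% of those of mt-Co3, 99.5% of mt-Atp6, 98.8% of mt-Nd4l and 98.0% of mt-Nd3. The share was 62.2% for mt-Nd4 and 51.1% for mt-Co1, the 2 genes at the edges of the segment. The share of mt-Co1 does not come from the segment alone. It shared 430 windows with Gm29216 on chromosome 1 and 411 with Gm13340, a pseudogene on chromosome 2. It was 8.19% for mt-Nd2 and 7.61% for mt-Nd5, 1.04% for mt-Rnr2, and 0% for mt-Nd1, mt-Cytb, mt-Nd6 and mt-Rnr1. The share was also 0% for mt-Atp8, whose -2.09 was the lowest level of a messenger RNA gene. The last 43 bases of mt-Atp8 overlap mt-Atp6 and lie in its copy Gm10925, but they are fewer than a window holds. The rest of mt-Atp8, and the 5 transfer RNA genes of the segment but for 3 bases of mt-Ts1, lie between the annotated pseudogenes. For those the transcripts hold no nuclear sequence to set them against.

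The pseudogenes of chromosome 1 were at low to moderate levels. Gm28438, the copy of mt-Nd3, had an rlog of 8.72 and 9.13 in T2D dnMCUb hearts, 9.40 and 8.93 in T2D empty vector hearts and 8.86 and 8.73 in control hearts. In the same libraries mt-Nd3 stood at -0.47 or -0.46, below its copy in all 6. Gm28438 was above control in both T2D empty vector libraries, by 0.37 (SE 0.17; limma, adjusted p = 0.805), which did not pass. Gm29216, the copy of the end of mt-Co1, lay between 6.08 and 6.16, and Gm28439, the copy of the start of mt-Nd4, between 0.000625 and 0.01. Gm29216 spans 492 bases against 1545 for mt-Co1, and Gm28439 876 against 1378 for mt-Nd4, and the other copies are within 3 bases of their chrM genes in length. For mt-Co1 and mt-Nd4 the chrM gene stood far above its copy, and for the other 5 pairs the copy stood above the chrM gene.

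**Figure D2:**
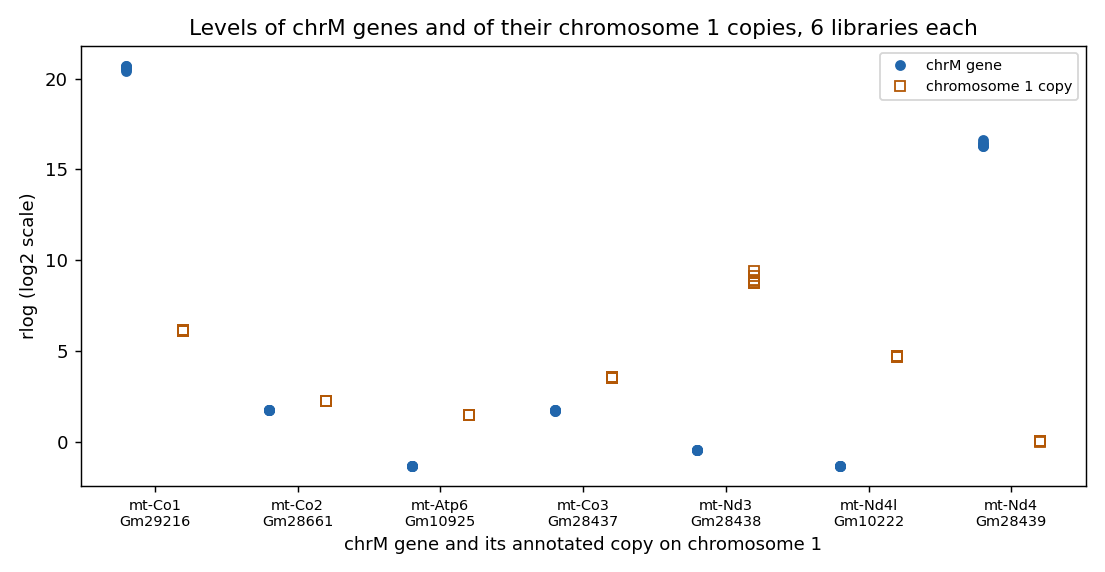
Rlog (y axis, log2 scale) of 7 chrM genes (filled circles) and of their annotated copies on chromosome 1 (open squares), 6 libraries each, in gene order. The copy of mt-Nd3 (8.72 to 9.40) lies above mt-Nd3 (-0.47 to -0.46), while mt-Co1 and mt-Nd4 lie far above their copies.

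Among the genes that could be measured, the 16S ribosomal RNA gene mt-Rnr2, the large subunit RNA of the mitochondrial ribosome, was the most abundant. Its rlog was 21.82 and 22.07 in T2D dnMCUb hearts, 21.89 and 22.02 in T2D empty vector hearts and 22.03 and 21.83 in control hearts. When rlog values were turned back to a linear scale and summed, chrM genes held 30.3% to 33.4% of a library's total. mt-Rnr2 alone held 17.4% to 19.6%, mt-Co1 held 6.89% to 7.71%, and all messenger RNA genes together held 10.9% to 11.8%. Of the 13 messenger RNA genes, 6 had values between -2.09 and 1.74, so this sum rests almost wholly on the other 7. Ribosomal RNA had been removed during library preparation, so the levels of mt-Rnr2 and mt-Rnr1 are those left after that step, and its part in their levels was not tested.

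Per kilobase of gene, on the log2 scale, the order of the tested messenger and ribosomal RNA genes over libraries was mt-Rnr2 at 21.28, mt-Co1 at 19.97, mt-Rnr1 at 18.68, mt-Nd1 at 18.45, mt-Cytb at 17.96, mt-Nd2 at 16.48, mt-Nd4 at 15.94, mt-Nd5 at 15.30 and mt-Nd6 at 12.95. Each stood above the next in 6 of 6 libraries, except mt-Rnr1, which stood above mt-Nd1 in 5 of 6, by -0.01 to 0.50. Those neighbours in the order do not differ beyond their spread. If only the bases outside the copied segment are counted as length, mt-Co1 moves to 20.52 and mt-Nd4 to 17.39, which puts mt-Nd4 above mt-Nd2. That length takes no account of the windows that mt-Co1 shares with Gm13340 on chromosome 2. mt-Nd6, a complex I subunit and the one messenger RNA gene encoded on the minus strand, was lowest of these 9. Of the transfer RNA genes, mt-Ti at 13.77 and mt-Tw at 13.60 per kilobase stood above mt-Nd6, and the other 20 below it. mt-Nd6 shares 14 bases with mt-Nd5 on the opposite strand, and the strand setting of the counting is not given in the sources used here.

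Transfer RNA genes lay far below in rlog, which takes no account of their short length. Of the 22, 7 reached a mean rlog of 5 (mt-Ti, mt-Tw, mt-Tt, mt-Tm, mt-Tl1, mt-Tn and mt-Tp, with values between 5.50 and 10.02), 10 more outside the copied segment lay between -1.37 and 4.95, and 5 lay inside it. Together they held 0.0116% to 0.0125% of the summed linear level. Outside the segment, the 10 on the plus strand had a median level of 5.97 and the 7 on the minus strand 3.98, as a description. These RNAs are short, folded and chemically modified, and the study's libraries were not made for small RNA.

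The sequences of 6 of these genes are shown. mt-Ti and mt-Tn gave the smallest limma p-values in the comparisons that follow, and the others were the next most abundant or next in p. Capitals mark the anticodon, and each runs 5′ to 3′ on the strand of its gene, as the DNA of the GENCODE M21 transcripts (GRCm38). mt-Ti carries isoleucine and lies on chrM:3706-3774 (plus strand), mt-Tn carries asparagine and lies on chrM:5089-5159 (minus strand), and mt-Tw carries tryptophan and lies on chrM:4950-5016 (plus strand). mt-Tt carries threonine and lies on chrM:15289-15355, mt-Tm carries methionine and lies on chrM:3845-3913, and mt-Tl1 carries leucine and lies on chrM:2676-2750, all on the plus strand.
mt-Ti: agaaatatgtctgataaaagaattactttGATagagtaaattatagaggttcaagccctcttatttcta
mt-Tn: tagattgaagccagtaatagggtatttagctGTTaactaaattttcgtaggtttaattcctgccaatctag
mt-Tw: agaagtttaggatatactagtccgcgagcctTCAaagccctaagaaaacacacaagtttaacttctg
mt-Tt: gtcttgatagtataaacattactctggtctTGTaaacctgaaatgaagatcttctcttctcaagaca
mt-Tm: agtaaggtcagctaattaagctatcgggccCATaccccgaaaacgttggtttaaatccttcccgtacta
mt-Tl1: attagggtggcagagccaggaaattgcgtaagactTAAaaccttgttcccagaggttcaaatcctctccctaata

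Levels were compared between groups with limma across the 13094 genes whose mean rlog reached 5, with adjustment over all of them. Of the 37 chrM genes, 16 reached that level, namely 7 for messenger RNAs (5 of 7 of complex I, 1 of 1 of complex III, 1 of 3 of complex IV and 0 of 2 of complex V), both for ribosomal RNAs and 7 for transfer RNAs. The other 21 were not tested.

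T2D empty vector hearts were set against control hearts to see what the diabetic state with its vector did to these RNAs. At an adjusted p under 0.05, 0 of the 16 passed, as did 0% of all genes tested, and at an unadjusted p under 0.05, 1 passed (mt-Tn), against 6.13% of all genes. The groups did not overlap for 5 of the 16, against 42.4% of all genes tested. The authors' deposited table listed 0 of the 37 with an adjusted p under 0.05, against 0.228% of the genes that vary.

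The 7 messenger RNA genes showed no direction in common, with 4 positive and 3 negative differences and a median of 0.02 against -0.00246 over all genes tested. mt-Co1, the catalytic core of complex IV, had an rlog of 20.67 and 20.52 in T2D empty vector hearts and 20.71 and 20.57 in control hearts, a difference of -0.04 (SE 0.22; limma, adjusted p = 0.975). mt-Cytb, the one complex III subunit of this genome, had 18.12 and 18.16 in T2D empty vector hearts and 18.19 and 18.14 in control hearts, a difference of -0.02 (SE 0.15). The groups overlapped for both, and for each of the other 5.

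The 5 complex I genes had overlapping groups throughout. mt-Nd1, a membrane arm subunit, had 18.39 and 18.35 in T2D empty vector hearts and 18.50 and 18.38 in control hearts, and mt-Nd2 had 16.56 in both T2D empty vector libraries and 16.59 and 16.45 in control hearts. mt-Nd4 had 16.37 and 16.41 in T2D empty vector hearts and 16.43 and 16.28 in control hearts, and mt-Nd5 had 16.14 and 16.18 in T2D empty vector hearts and 16.17 and 16.04 in control hearts. mt-Nd6 had 12.04 and 12.00 in T2D empty vector hearts and 11.86 and 12.14 in control hearts. In all 5 the control values enclosed or crossed those of T2D empty vector, and differences ran from -0.07 for mt-Nd1 to 0.06 for mt-Nd5, with the smallest adjusted p at 0.934 (limma). The 95% interval was -0.44 to 0.29 for mt-Nd1 and -0.19 to 0.30 for mt-Nd5, so with 2 libraries a group differences anywhere within those bounds remain compatible with the data.

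The 2 ribosomal RNA genes differed from each other in pattern. mt-Rnr1, the 12S RNA of the small ribosomal subunit, had an rlog of 18.53 and 18.85 in T2D empty vector hearts and 18.52 and 18.37 in control hearts. Its groups did not overlap, by a narrow margin, and the difference was 0.25 (SE 0.17; limma, adjusted p = 0.856). It was 0.084 without library 2 of T2D empty vector, 0.41 without library 1 and 0.11 under quantile normalization, which sets values by rank alone. For mt-Rnr2 the groups overlapped and the difference was 0.02 (SE 0.29).

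Of the transfer RNA genes, mt-Ti had 9.92 and 9.93 in T2D empty vector hearts and 10.02 in both control libraries, a difference of -0.09 (SE 0.04; limma, adjusted p = 0.805). mt-Tn had 6.49 and 6.43 in T2D empty vector hearts and 6.36 and 6.39 in control hearts, a difference of 0.09 (SE 0.03; limma, adjusted p = 0.805). The groups were apart for both, with mt-Ti lower and mt-Tn higher, and neither passed. mt-Tt had 7.72 and 7.81 in T2D empty vector hearts and 7.90 and 7.83 in control hearts, and mt-Tl1 had 7.13 and 7.17 in T2D empty vector hearts and 7.10 and 7.11 in control hearts, both again apart by little. mt-Tw and mt-Tm overlapped, with 9.76 and 9.65 for mt-Tw in T2D empty vector hearts and 9.74 and 9.71 in control hearts.

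T2D dnMCUb hearts were set against T2D empty vector hearts to ask what the dominant negative uniporter subunit did in diabetic hearts. Again 0 of the 16 passed after adjustment, against 0% of all genes tested, and 2 (mt-Tn and mt-Ti) had an unadjusted p under 0.05, against 5.64% of all genes. The groups did not overlap for 2 of the 16, against 32.2% of all genes. The authors' deposited table listed 0 of the 37 with an adjusted p under 0.05, against 0.0285% of the genes that vary.

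The messenger RNAs of the T2D dnMCUb libraries were spread more widely than the difference between the groups. mt-Nd1 had an rlog of 18.21 and 18.49 in T2D dnMCUb hearts, against 18.39 and 18.35 in T2D empty vector hearts. mt-Nd4 had 16.31 and 16.60 in T2D dnMCUb hearts, against 16.37 and 16.41 in T2D empty vector hearts, and mt-Cytb had 18.01 and 18.32 in T2D dnMCUb hearts, against 18.12 and 18.16 in T2D empty vector hearts. In each of the 3 the T2D dnMCUb libraries lay on either side of both T2D empty vector libraries.

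The same held for mt-Nd2, with 16.39 and 16.67 in T2D dnMCUb hearts, for mt-Nd6, with 11.83 and 12.12, and for mt-Co1, with 20.42 and 20.68. mt-Nd5, with 16.14 and 16.30 in T2D dnMCUb hearts, overlapped T2D empty vector as well. Differences of the 7 ran from -0.05 to 0.07, with a median of -0.02 against -0.000506 over all genes tested and the smallest adjusted p at 0.956 (limma). The 95% interval was -0.57 to 0.48 for mt-Co1, the widest of the 7, and -0.19 to 0.30 for mt-Nd5, the narrowest.

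Within T2D dnMCUb hearts, library 2 exceeded library 1 for 7 of 7 messenger RNA genes, by 0.16 to 0.32, while the libraries of T2D empty vector differed by -0.15 to 0.04 and those of control by -0.15 to 0.28. Nuclear genes for subunits of the same complexes shared this offset. Of 75, 74 were higher in library 2 of T2D dnMCUb, by a median of 0.21. In T2D empty vector hearts 8 of 75 were higher in library 2 (median -0.070), and in control hearts 10 of 75 (median -0.065). Most of these subunits thus moved the same way between libraries in each group, and such a count is not particular to T2D dnMCUb. The summed cardiomyocyte markers were likewise lowest in library 1 of T2D dnMCUb (20.48), and its summed markers were highest for fibroblasts (15.00, against 14.35 to 14.68 in the other libraries), for atrial myocytes (12.15, against 10.46 to 11.55), for macrophages (12.01, against 11.74 to 11.86) and for smooth muscle and pericytes (14.96, against 14.67 to 14.85). All of the 8 cardiomyocyte, 5 fibroblast, 6 macrophage and 5 smooth muscle and pericyte markers, and 4 of 5 atrial markers, were among the genes tested, and none was at 0. Library 1 of T2D dnMCUb was not highest for endothelial markers (13.93, against 13.98 in control library 2). Nor was it for adipocyte markers (5.66, against 5.69 in control library 1), of which 0 of 5 were tested. For skeletal muscle markers, 2 of 5 tested, it was lowest (14.69, against 14.82 to 15.10). Red cell markers, 5 of 5 tested and none at 0, had summed levels of 12.47 and 12.9995 in T2D dnMCUb hearts, 11.70 and 11.73 in T2D empty vector hearts and 12.64 and 11.72 in control hearts. For all 5 the T2D dnMCUb libraries were above the T2D empty vector libraries, with a median difference of 0.88, and 0 of the 5 passed after adjustment (limma, smallest adjusted p = 0.780). The part of these markers in the messenger RNA levels was not tested, and fewer cells of a type cannot be told from less RNA per cell in whole hearts.

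**Figure D3:**
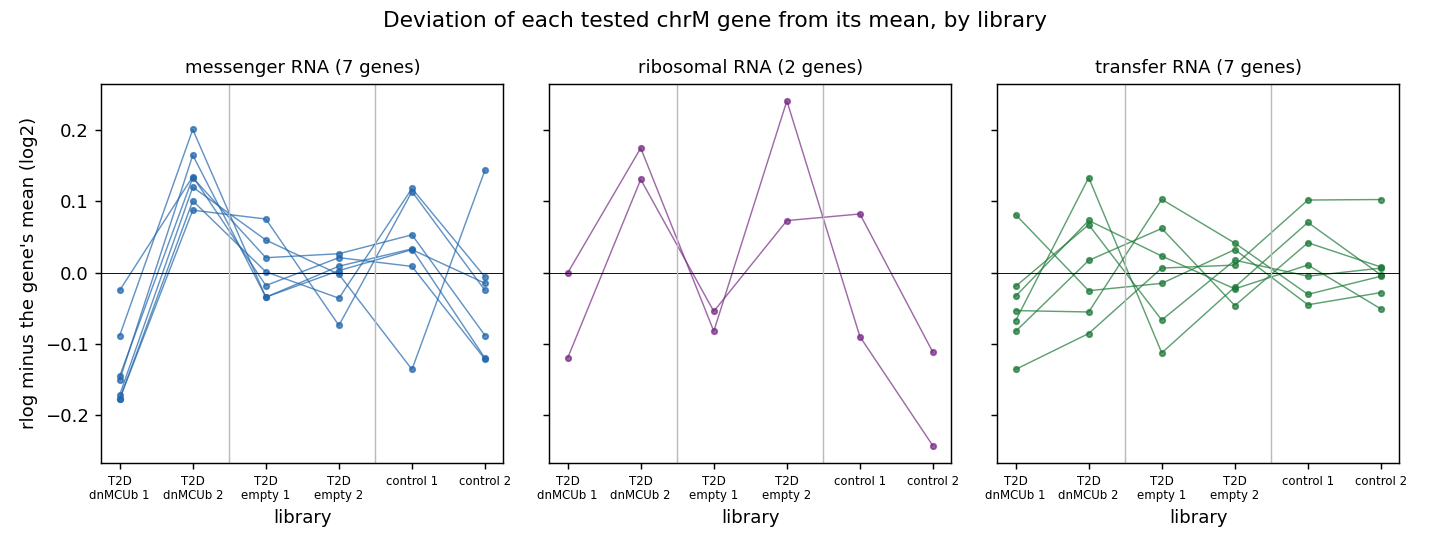
Rlog of each tested chrM gene minus its mean over the 6 libraries (y axis, log2 scale) in each library (x axis), with a line per gene and a panel per kind of RNA. The 7 messenger RNA genes lie below their means in library 1 of T2D dnMCUb and above them in library 2, whereas transfer RNA genes follow no common course.

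mt-Rnr1 had an rlog of 18.61 and 18.78 in T2D dnMCUb hearts, against 18.53 and 18.85 in T2D empty vector hearts, a difference of 0.01 (SE 0.17; limma, adjusted p = 0.998), with overlap. mt-Tn had 6.34 in both T2D dnMCUb libraries, against 6.49 and 6.43 in T2D empty vector hearts, a difference of -0.13 (SE 0.03; limma, adjusted p = 0.780). mt-Ti had 9.78 and 9.83 in T2D dnMCUb hearts, against 9.92 and 9.93 in T2D empty vector hearts, a difference of -0.12 (SE 0.04; limma, adjusted p = 0.869). Both transfer RNA genes were lower in each T2D dnMCUb library than in each T2D empty vector library, and neither passed. mt-Tt had 7.76 and 7.97 in T2D dnMCUb hearts, mt-Tw had 9.62 and 9.72, and mt-Tm had 7.73 and 7.82, all overlapping T2D empty vector.

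T2D dnMCUb hearts were also set against control hearts, which differ from them in diet, streptozotocin and vector together. At an adjusted p under 0.05, 0 of the 16 passed, against 0.0687% of all genes tested. Only mt-Ti had an unadjusted p under 0.05 (limma), against 11.4% of all genes. Groups did not overlap for 4 of the 16 (mt-Rnr1, mt-Tl1, mt-Ti and mt-Tn), against 42.9% of all genes. The authors' deposited table listed 0 of the 37 with an adjusted p under 0.05, against 0.329% of the genes that vary.

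mt-Ti gave the smallest limma p of the chrM genes. Its values of 9.78 and 9.83 in T2D dnMCUb hearts, 9.92 and 9.93 in T2D empty vector hearts and 10.02 in both control libraries did not overlap between any 2 groups. The difference between T2D dnMCUb and control was -0.21 (SE 0.04, 95% interval -0.31 to -0.11; limma, adjusted p = 0.134). Without library 2 of T2D dnMCUb it passed, at -0.24 (adjusted p = 0.0325), in a fit that called 743 genes in all. mt-Ti shares 2 bases with mt-Nd1 and 3 with mt-Tq on the opposite strand. The authors' deposited table gave mt-Ti a log2 fold of -0.38, with a p of 0.00911 before adjustment and 0.431 after. In that table mt-Rnr1, not mt-Ti, had the smallest unadjusted p, 0.00554. These 2 were the tested chrM genes under 0.05 there before adjustment.

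For mt-Rnr1 the difference between T2D dnMCUb and control was 0.25 (SE 0.17, 95% interval -0.15 to 0.66; limma, adjusted p = 0.589). It ran from 0.17 without library 2 of T2D dnMCUb to 0.34 without library 1, and was 0.11 under quantile normalization. The authors' deposited table gave it a log2 fold of 0.35 with an adjusted p of 0.325. For the 7 messenger RNA genes differences ran from -0.09 to 0.11, with a median of -0.00147 against -0.00234 over all genes tested, and all 7 overlapped. Without library 2 of T2D dnMCUb that median was -0.16, and without library 1 it was 0.15. Over all 13, the median was -0.00146, since the 6 at the bottom of the scale hardly vary between libraries. The comparisons with a common group share its libraries and are not independent of each other.

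**Figure D4:**
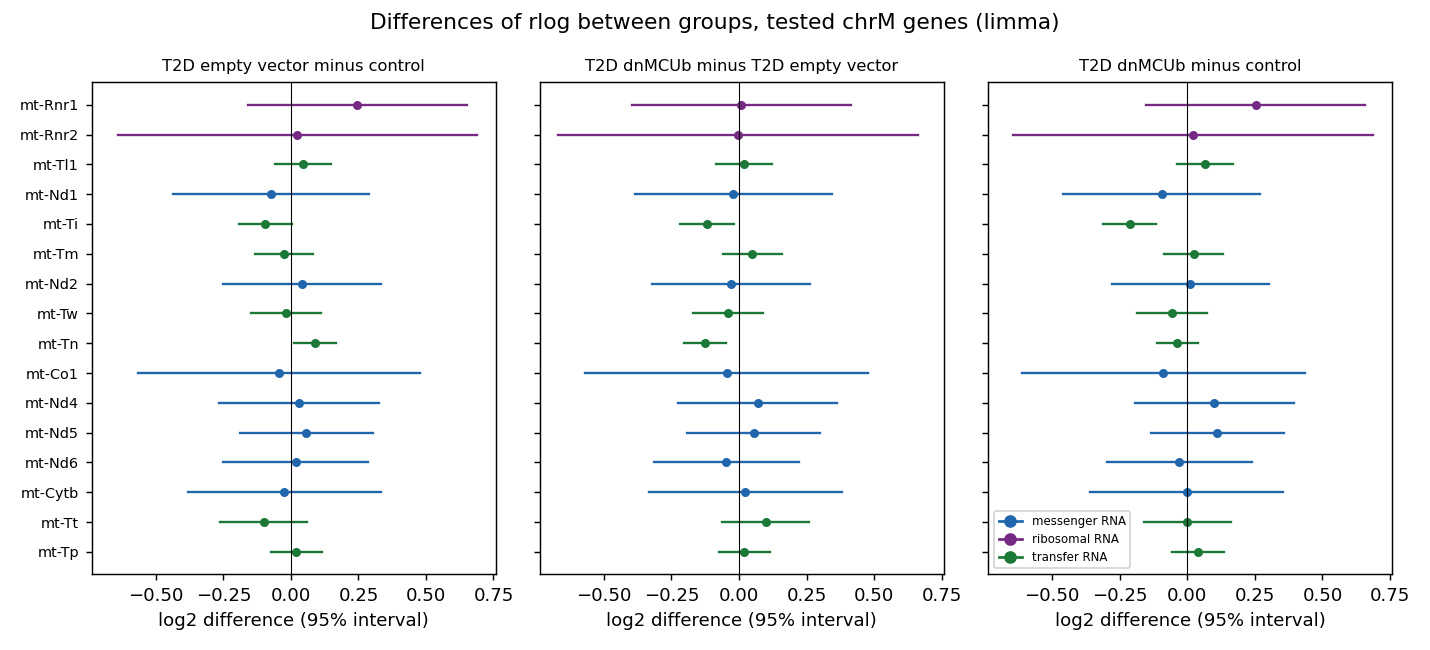
Difference in rlog (x axis, log2 scale) of the 16 tested chrM genes in 3 comparisons, with 95% intervals from limma and colours by kind of RNA. No gene passed an adjusted p of 0.05, and mt-Ti in T2D dnMCUb against control (-0.21, interval -0.31 to -0.11) lies farthest from 0 relative to its interval.

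Balance between the RNAs of a library was then described by subtracting the rlog of mt-Nd2, which was the median of the 7 messenger RNA genes in each library. These are values without a test, chosen after the levels had been seen. mt-Rnr1 stood above mt-Nd2 by 2.22 and 2.12 in T2D dnMCUb hearts, 1.97 and 2.29 in T2D empty vector hearts and 1.93 and 1.92 in control hearts. All 4 diabetic libraries exceeded both control libraries, 1 of them by a small margin.

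mt-Nd1 stood above mt-Nd2 by 1.82 in both T2D dnMCUb libraries, by 1.83 and 1.79 in T2D empty vector hearts and by 1.91 and 1.93 in control hearts. mt-Co1 stood above it by 4.03 and 4.01 in T2D dnMCUb hearts, 4.11 and 3.96 in T2D empty vector hearts and 4.12 in both control libraries. On this scale the diabetic hearts were lower than control for both genes, although for mt-Co1 1 library of T2D empty vector nearly met the control values.

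mt-Nd4 stood at -0.08 and -0.07 relative to mt-Nd2 in T2D dnMCUb hearts, at -0.19 and -0.15 in T2D empty vector hearts and at -0.16 and -0.17 in control hearts. mt-Nd5 stood at -0.25 and -0.37 in T2D dnMCUb hearts, at -0.41 and -0.38 in T2D empty vector hearts and at -0.42 and -0.41 in control hearts. For both, the T2D dnMCUb libraries were above all the others, for mt-Nd5 by a narrow margin. On this scale the groups did not overlap for 6 of the 16 genes (1 above, 5 below) between T2D empty vector and control, against 23.6% of all genes tested. They did not overlap for 4 (all above) between T2D dnMCUb and T2D empty vector, against 4.68% of all genes, and for 6 (3 above, 3 below) between T2D dnMCUb and control, against 7.03%. Subtraction brings the spread of mt-Nd2 between libraries, which the messenger RNA genes of chrM share, into the values of every other gene, so the chrM counts and these shares are not on equal terms. mt-Nd2 itself, counted among the 16, is 0 in every library on this scale, so its overlap was fixed in advance. Without such centring the groups did not overlap for 5, 2 and 4 genes in the same comparisons.

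**Figure D5:**
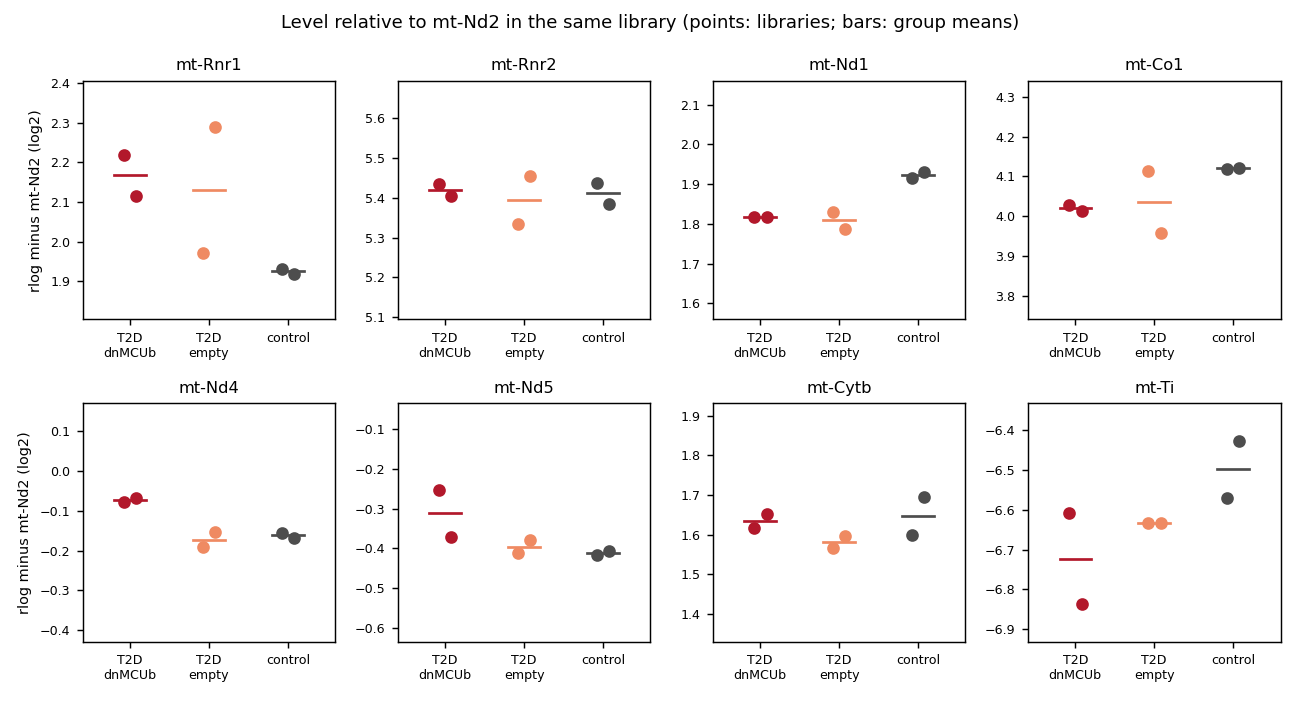
Rlog of 8 chrM genes minus that of mt-Nd2 in the same library (y axis, log2 scale), by group, with a point per library and a bar at the group mean. Each panel spans 0.6 on the log2 scale, and mt-Nd1 (1.79 to 1.83 in both diabetic groups, 1.91 and 1.93 in control) lies apart between diabetic and control hearts, while mt-Nd4 lies apart between T2D dnMCUb hearts and the other groups.

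The nuclear genes that serve this genome were described from lists chosen with earlier results of these data known. Genes for transcription and replication of mitochondrial DNA (16 tested), for processing and decay of its RNA (22 tested) and for charging its transfer RNAs (22 tested) gave 0 calls in each of the 3 comparisons. Between T2D dnMCUb and control, differences were negative for 15 of 16, 21 of 22 and 22 of 22, with medians of -0.06, -0.09 and -0.08, against -0.00234 over all genes, of which 6740 of 13094 had a negative difference. Between T2D empty vector and control, they were negative for 14 of 16, 17 of 22 and 20 of 22, against 6781 of 13094 over all genes. Between T2D dnMCUb and T2D empty vector, they were negative for 13 of 16, 19 of 22 and 18 of 22, against 6606 of 13094.

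Mterf2, of the family of mitochondrial transcription termination factors, had an rlog of 9.02 and 9.08 in T2D dnMCUb hearts, 9.18 and 9.09 in T2D empty vector hearts and 9.25 and 9.23 in control hearts. Both T2D dnMCUb libraries lay below the other 4, and the difference from control was -0.19 (SE 0.05; limma, adjusted p = 0.209). Tfam, which packages mitochondrial DNA and starts its transcription, had 9.86 and 9.93 in T2D dnMCUb hearts, 9.90 and 9.86 in T2D empty vector hearts and 9.97 and 9.98 in control hearts. All 4 diabetic libraries were below both control libraries, and between T2D empty vector and control the difference was -0.10 (SE 0.05; limma, adjusted p = 0.805).

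Elac2, which trims the 3′ end of transfer RNA precursors, had 8.29 and 8.34 in T2D dnMCUb hearts, against 8.40 and 8.44 in T2D empty vector hearts, a difference of -0.11 (SE 0.04; limma, adjusted p = 0.869). Yars2, which charges the mitochondrial tyrosine transfer RNA, had 8.74 in both T2D dnMCUb libraries, 8.86 and 8.77 in T2D empty vector hearts and 8.90 and 8.98 in control hearts, and its difference between T2D dnMCUb and control was -0.20 (SE 0.05; limma, adjusted p = 0.209). Iars2, which charges the transfer RNA of mt-Ti, had 11.26 and 11.38 in T2D dnMCUb hearts, against 11.42 and 11.41 in T2D empty vector hearts, a difference of -0.09 (SE 0.06; limma, adjusted p = 0.888). The groups named in each of these 3 comparisons did not overlap, and none of the differences passed.

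The nuclear subunits of complexes I, III, IV and V, 75 of which were tested, gave 0 calls as well. Differences were negative for 68 of 75 between T2D empty vector and control (median -0.05), against 6781 of the 13094 genes tested (median -0.00246). They were negative for 57 of 75 between T2D dnMCUb and T2D empty vector (median -0.03), against 6606 of 13094 (median -0.000506). Between T2D dnMCUb and control they were negative for 70 of 75 (median -0.09), against 6740 of 13094 (median -0.00234). These subunits moved together between the libraries of a group, so the 75 are not independent. The 7 messenger RNA genes of chrM had 3, 4 and 4 negative differences in those comparisons, with medians of 0.02, -0.02 and -0.00147, and the difference between the sets was not tested. Cardiomyocyte markers had negative differences for 7 of 8, 6 of 8 and 8 of 8, with medians of -0.13, -0.06 and -0.20, and their part in the nuclear differences was not tested.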

How the data were processed

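Libraries were stranded and made from total RNA depleted of ribosomal RNA, per the labels' protocols. Tools listed in the submitters' processing notes are STAR 2.5.2a, bcl2fastq 2.20.0.422 and DESeq2, and builds listed are GRCm38, mm10 and hg38, with no role given. How reads were counted, on which strand, and what became of reads that match several places is not given in the sources used here. The authors deposited rlog values on the log2 scale for 6 libraries, and, for each comparison, log2 folds with a p-value before and after adjustment. The direction of the authors' folds was checked against group means for the 72, 9 and 104 genes they called, and all had the same sign.

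The 37 genes had the coordinates and strand of GENCODE M21 (GRCm38), from which sequences were taken. Group differences were fitted with limma 3.58.1 (R 4.3.3), using a mean-variance trend and all 6 libraries in 1 fit, over the 13094 genes whose mean rlog reached 5, with Benjamini-Hochberg adjustment at 0.05. The fit has 3 residual and 4.6 prior degrees of freedom. An exact test of 2 libraries against 2 cannot go below 0.333 and was not used. Whether a group's libraries are separate animals is not labelled, and the p-values reflect only how these libraries vary, which may be technical. The fit was tested on simulated data.

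The genes, the lists and the settings tried were chosen with earlier results of these data known. Named were all messenger and ribosomal RNA genes, the 4 most abundant transfer RNA genes and the 2 with the smallest p in each comparison. From the nuclear lists for transcription and replication, RNA processing and decay, and transfer RNA charging, some of the 2 with the smallest p were named. Of the nuclear subunits of complexes I, III, IV and V, none was named. Alternatives tried were no minimum level, a minimum of 8, centring on nuclear genes, quantile normalization, no trend, a replicate block, fits of 2 groups and leaving out each library.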

Additional observations from a re-analysis of the deposited data

How the results depend on the processing

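The number of chrM genes past an adjusted p of 0.05 was 0 in each comparison under every setting that kept all libraries, including no minimum level, a minimum of 8, nuclear centring, quantile normalization, no trend and fits of 2 groups. With a library left out it was 0 in the first 2 comparisons and 0 to 1 between T2D dnMCUb and control, where mt-Ti passed without library 2 of T2D dnMCUb (adjusted p = 0.0325). Calls over all genes in that comparison were 9 with all libraries, 743 without library 2 of T2D dnMCUb, 89 without library 1, 1 without control library 2 and 0 without any other single library or under the other settings. Between T2D empty vector and control, calls over all genes were 0 with all libraries, 30 in a fit of the 2 groups or without either library of T2D dnMCUb, and 1 without control library 2. Between T2D dnMCUb and T2D empty vector they were 0 with all libraries and 14 without library 1 of T2D dnMCUb. Replicate numbers did not pair the libraries, with correlations of -0.09, -0.51 and -0.01 between the deviations of same-numbered libraries over 13094 genes. The fit with the replicate block called 0 chrM genes in each comparison. With the numbers crossed between T2D dnMCUb and T2D empty vector, a choice made after seeing the data, the block in a fit of the 2 groups called 11 genes, against 0 as labelled, and 0 chrM genes.

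Under other settings that kept all libraries, 320 of 333 gene differences kept their sign, 11 were 0 (within 1e-09) under quantile normalization and 2 reversed. Only nuclear centring and quantile normalization can move a difference of group means here. Under the other settings the sign was fixed in advance, so most of this count says nothing on robustness. The reversals were both under quantile normalization, with mt-Nd2 at 0.0231 between T2D dnMCUb and T2D empty vector and mt-Nd6 at 0.00737 between T2D dnMCUb and control. Quantile normalization gives no value for the 13-gene median, since it was run on tested genes. It sets values by rank within a library, so a gene that keeps its rank in 2 groups gets a difference of 0. Between T2D empty vector and control it gave 0.114 for mt-Rnr1 and -0.114 for mt-Nd1. These 2 genes swap order in control library 2, at 18.37 and 18.38. The cause of the 2 reversals was not tested.

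With 1 library left out, 42 of 270 differences reversed, and 16 of 45 differences reversed under no setting. Leaving out a library of the group that a comparison does not use cannot change its difference, so part of the 270 was fixed in advance. The counts cover the named genes and leave out mt-Tp. For mt-Rnr1, which kept its sign in both comparisons with control, the range was 0.084 to 0.41 for T2D empty vector and 0.17 to 0.34 for T2D dnMCUb, and for mt-Tn the difference between T2D empty vector and control was 0.059 without library 1 of T2D empty vector. The median of the 7 messenger RNA genes between T2D dnMCUb and control then ran from -0.16 to 0.15. Between T2D empty vector and control the ranges were -0.029 to 0.11 for mt-Nd2, -0.046 to 0.11 for mt-Nd4, -0.0072 to 0.12 for mt-Nd5, -0.12 to 0.16 for mt-Nd6, -0.12 to 0.031 for mt-Co1, -0.073 to 0.12 for mt-Rnr2, -0.071 to 0.037 for mt-Tw and -0.067 to 0.017 for mt-Tm. Between T2D dnMCUb and T2D empty vector they were -0.16 to 0.12 for mt-Nd1, -0.17 to 0.11 for mt-Nd2, -0.076 to 0.21 for mt-Nd4, -0.026 to 0.13 for mt-Nd5, -0.19 to 0.10 for mt-Nd6, -0.13 to 0.18 for mt-Cytb, -0.18 to 0.087 for mt-Co1, -0.15 to 0.17 for mt-Rnr1, -0.13 to 0.12 for mt-Rnr2, -0.095 to 0.014 for mt-Tw, -0.00106 to 0.20 for mt-Tt and -0.034 to 0.073 for mt-Tl1. Between T2D dnMCUb and control they were -0.23 to 0.045 for mt-Nd1, -0.13 to 0.15 for mt-Nd2, -0.045 to 0.24 for mt-Nd4, -0.18 to 0.12 for mt-Nd6, -0.16 to 0.16 for mt-Cytb, -0.22 to 0.043 for mt-Co1, -0.10 to 0.15 for mt-Rnr2, -0.10 to 0.10 for mt-Tt and -0.020 to 0.066 for mt-Tm. Where a group keeps 1 library, that library is assumed to vary like the others. Depth is unknown, rlog compresses differences, and 2 libraries a group limit what can be seen.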

Other observations

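Of 3 annotated copies of mitochondrial genes on chromosome 2, 2 had a level of over 5 and 1, Gm13339 (81 windows shared with mt-Nd2), stood at -1.73 or -1.72 in all 6 libraries. Gm13340, which shares 411 windows of 50 bases with mt-Co1, had an rlog of 8.13 and 8.30 in T2D dnMCUb hearts, 8.38 and 8.21 in T2D empty vector hearts and 8.32 and 8.29 in control hearts. Gm13341, which shares 224 such windows with mt-Co2, had 7.12 and 7.24 in T2D dnMCUb hearts, 7.23 and 7.22 in T2D empty vector hearts and 7.26 and 7.22 in control hearts. The groups overlapped for Gm13340 and Gm13341, and the smallest adjusted p over their 3 comparisons was 0.641 for Gm13340 and 0.644 for Gm13341 (limma). Gm13341 thus stood above mt-Co2, whose rlog was between 1.71 and 1.74, in all 6 libraries.

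Among the chrM genes that were not tested, mt-Tq had the widest range over libraries, 0.35, and was picked for that range. It had an rlog of 3.91 and 4.26 in T2D dnMCUb hearts, 3.90 and 3.92 in T2D empty vector hearts and 3.98 and 3.90 in control hearts, so library 2 of T2D dnMCUb stood above the other 5. The authors' deposited table gave mt-Tq a log2 fold of 4.06 between T2D dnMCUb and T2D empty vector, with a p of 0.0508 before adjustment and 0.99993 after. That fold was the largest in size among the untested chrM genes. Authors' log2 folds of genes near the bottom of the scale were also large without a call. For mt-Nd3 the authors' deposited table gave -3.28 between T2D dnMCUb and control with an adjusted p of 1, while the rlog of that gene was -0.47 or -0.46 in all libraries.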
